A study of Mus musculus with 6 samples.

Results

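The set described here comprises 40 mouse genes of glycolysis and of the response to low oxygen, in 4T1 mammary carcinoma cells and their axitinib-resistant derivative. The members were listed by name in 4 roles, 19 glycolytic enzymes, 4 glucose and lactate carriers, 5 subunits and regulators of the hypoxia-inducible factor (HIF) and 12 other hypoxia-induced genes, and make up 40 of the 53465 genes in the deposited table. RNA was sequenced from 3 libraries of parental (P) cells and 3 libraries of axitinib-resistant (AxR) cells. 4T1 is a spontaneously metastatic mouse breast cancer line, and axitinib is an inhibitor of the VEGF receptors. AxR cells came from metastases that arose after surgery in mice given 100 mg/kg/day axitinib, and were then cultured with 0.5 μM axitinib for over 2 months. The treatment label gives axitinib to AxR samples only, whereas the growth label names 0.5 μM axitinib for all 6 samples. AxR is a single derived line, the labels do not say whether replicates were separate cultures, and the p-values therefore measure only the spread between these libraries. The presence of the drug, the passage through the mouse and the derivation of the line cannot be told apart, and the oxygen level of the cultures is not given in the sources used here.

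Glycolysis converts glucose to pyruvate in the cytosol, and lactate dehydrogenase then reduces pyruvate to lactate, which leaves the cell through monocarboxylate carriers. HIF is a pair of an oxygen-regulated alpha subunit (HIF-1α from Hif1a, HIF-2α from Epas1) and a constant beta subunit (Arnt). In the presence of oxygen the prolyl hydroxylases (Egln1, Egln3) mark the alpha subunit for destruction by the Vhl ubiquitin ligase, and when oxygen falls HIF accumulates as a protein and switches on glycolytic enzymes together with genes of pH control, mitophagy and matrix hydroxylation. HIF is therefore regulated mostly at the protein level, which was not measured here. Mammary carcinoma cells are well known for high glycolysis in culture.

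HIF binds the core ACGTG or GCGTG, and promoter sequences of members that the results turn on are shown because they hold this core. They are RefSeq windows of up to 250 bases before the transcription start, on GRCm38.p6, with capitals marking each core on either strand (CACGT and CACGC are the reverse complements, and the overlapping cores of CACGTG count on both strands). The windows of Ldha (chr7:46845554-46845803, plus strand), Pgk1 (chrX:106186850-106187099, plus strand) and Aldoa (chr7:126799255-126799504, minus strand) belong to enzymes that rose in AxR cells. Those of Bnip3 (chr7:138909520-138909756, minus strand) and Adm (chr7:110627407-110627656, plus strand) belong to genes of the other hypoxia-induced role that rose. That of Egln3 (chr12:54203875-54204124, minus strand) belongs to the only gene of that role that fell.
Ldha: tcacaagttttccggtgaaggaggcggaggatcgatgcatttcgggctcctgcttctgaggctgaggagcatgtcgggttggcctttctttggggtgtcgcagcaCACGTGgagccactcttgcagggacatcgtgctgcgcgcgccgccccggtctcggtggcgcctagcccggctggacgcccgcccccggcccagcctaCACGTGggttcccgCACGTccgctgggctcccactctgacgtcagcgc
Pgk1: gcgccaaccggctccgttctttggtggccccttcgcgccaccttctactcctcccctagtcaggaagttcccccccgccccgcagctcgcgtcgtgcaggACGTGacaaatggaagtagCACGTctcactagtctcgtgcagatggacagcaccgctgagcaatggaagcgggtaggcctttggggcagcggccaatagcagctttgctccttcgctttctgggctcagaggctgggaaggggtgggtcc
Aldoa: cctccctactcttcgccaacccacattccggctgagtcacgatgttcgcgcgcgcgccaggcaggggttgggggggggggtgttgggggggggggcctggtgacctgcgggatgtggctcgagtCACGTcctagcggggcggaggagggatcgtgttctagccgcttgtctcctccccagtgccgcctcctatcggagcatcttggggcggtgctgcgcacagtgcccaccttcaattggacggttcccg
Bnip3: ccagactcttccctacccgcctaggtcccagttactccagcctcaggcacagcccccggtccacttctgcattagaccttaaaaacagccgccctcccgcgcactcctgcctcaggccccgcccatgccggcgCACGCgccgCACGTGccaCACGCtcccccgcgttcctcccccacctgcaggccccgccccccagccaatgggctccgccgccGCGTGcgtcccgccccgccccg
Adm: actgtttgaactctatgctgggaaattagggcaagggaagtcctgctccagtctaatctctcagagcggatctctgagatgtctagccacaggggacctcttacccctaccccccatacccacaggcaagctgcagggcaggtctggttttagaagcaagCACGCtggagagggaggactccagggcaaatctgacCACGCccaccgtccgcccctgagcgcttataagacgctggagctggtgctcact
Egln3: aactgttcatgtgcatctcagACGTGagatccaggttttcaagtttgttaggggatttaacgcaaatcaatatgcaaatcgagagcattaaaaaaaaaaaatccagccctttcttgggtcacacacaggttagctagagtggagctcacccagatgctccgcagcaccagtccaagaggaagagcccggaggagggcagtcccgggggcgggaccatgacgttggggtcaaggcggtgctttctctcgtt
Ldha and Bnip3 each held 5 cores, Pgk1 and Adm 2, and Aldoa and Egln3 1, so Egln3, which fell, carried a core as well. Of the 36 members with a promoter window in the RefSeq table, 32 held a core in at least 1 window (88.9%), against 62.6% of the 9424 tested genes with a window and 41.5% of all 27025 genes with one. Members had 51 windows, of which 40 held a core (78.4%), against 38.6% of all windows, including those of genes not tested here. The share of windows was not computed for tested genes alone. Some member windows overlapped annotated exons, by as many as 250 bases in Eno1 and Pdk1. The core was present in 22 of 24 members that rose, in 5 of 6 that fell and in 3 of 4 that were tested without a call, and the median GC content was 61.9% for members and 60.0% for tested genes. Enzymes held it in 16 of 19 cases and the other hypoxia-induced genes in 10 of 10. Bnip3l, Epas1, Ndrg1 and Slc2a3 were not in the promoter table. These are matches of letters, and binding was not measured.

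Levels are given as CPM, counts scaled to the normalized library size as edgeR gives them, from estimated counts that summed to between 15495260 and 17294525 per library, where 3 counts, taken as the floor of detection, equal 0.171 to 0.196 CPM. Log2 fold changes are AxR against P with their SE, n = 3 libraries a line, and a gene is said to rise or fall where its adjusted p (edgeR, quasi-likelihood, Benjamini-Hochberg) was under 0.05. The lines differed broadly, and 63.5% of the 13550 genes tested passed, 32.8% higher and 30.8% lower in AxR cells, so a single call in a member is common background. The median log2 fold change of all genes tested was 0.01. Of epithelial markers, Krt5 alone of 7 was at 0, and their summed level was 1543 to 1705 CPM in P and 2322 to 2413 CPM in AxR libraries. Of 8 leukocyte, 6 endothelial and 5 red blood cell markers, none summed over 0.693 CPM in any library, and Tyrobp, Cd3e, S100a9, Kdr, Emcn and the hemoglobins had no count. Fibroblast markers summed to 22.5 to 24.1 CPM in P and 10.2 to 11.6 CPM in AxR cells, almost all of it Pdgfra, with Col3a1, Lum and Thy1 at 0, and lung epithelial markers to at most 1.15 CPM in P and 4.15 to 4.21 CPM in AxR cells, of which Foxj1 alone made 3.75 to 3.83 CPM, with Scgb1a1 at 0. Proliferation genes moved with the members, with 8 of 8 higher in AxR cells (median log2 fold change 0.52) and sums of 1762 to 1968 CPM in P against 2706 to 3143 CPM in AxR libraries, and their part in the results was not tested.

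Most members of the set were higher in AxR cells. Of 40 members, 36 had enough counts to be tested, and 26 rose, 6 fell (Hk1, Pfkp, Pfkfb3, Vhl, Egln1 and Egln3) and 4 were not called (Hk2, Pfkfb4, Eno2 and Arnt). The shares of 72.2% higher and 16.7% lower stand beside 32.8% and 30.8% of all genes tested, and the median log2 fold change of the 36 was 0.53. In 33 of the 36 the libraries of the lines did not overlap, against 68.3% of all genes tested. At least 2-fold higher were 10 members (7.99% of all genes tested), namely Car9, Adm, Aldoc, Bnip3, Tpi1, Pdk1, Pfkl, Ddit4, Aldoa and Ldha, and no tested member was at least 2-fold lower. Members together took 0.673% to 0.709% of the counts in P libraries and 1.01% to 1.05% in AxR libraries. Ldhb, Slc2a3, Slc16a3 and Epas1 were too low to be tested, and Adm and Ankrd37 passed the filter on low counts only through their AxR level.

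**Figure D1:**
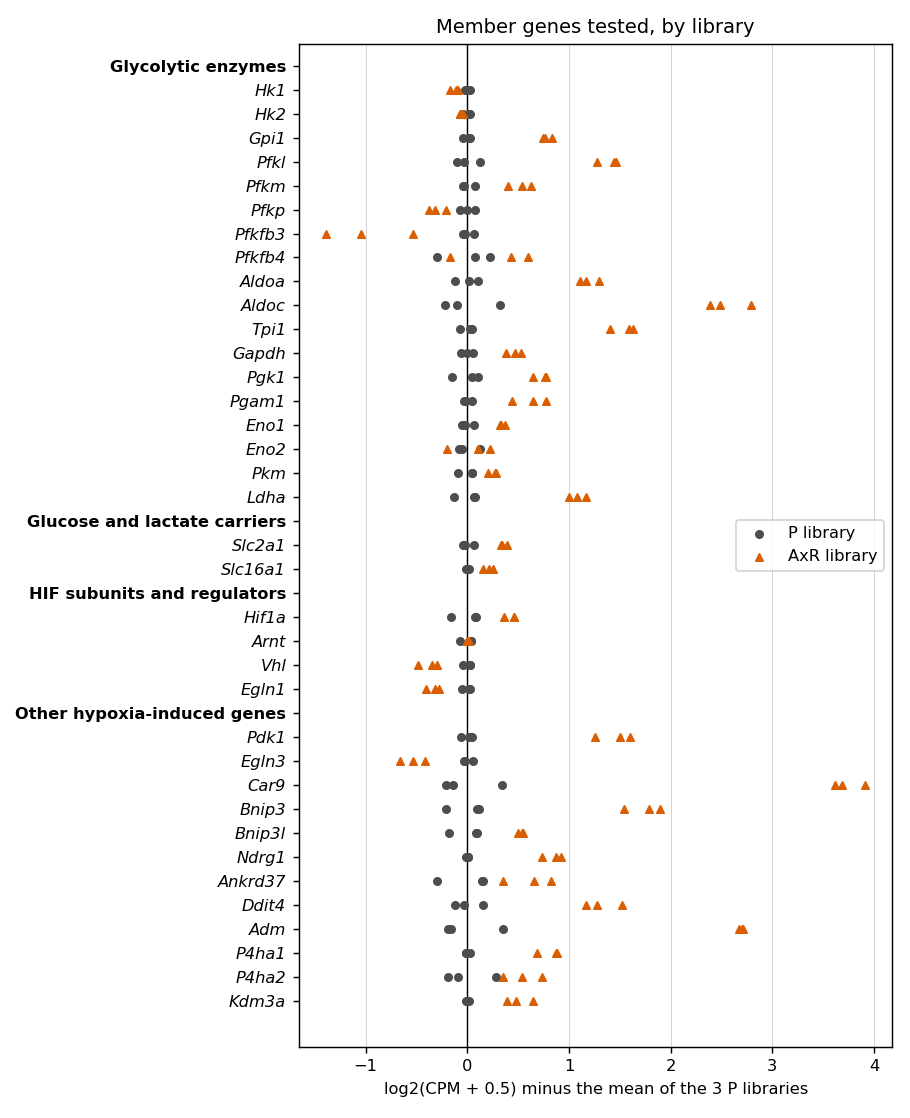
Each tested member in each library, as log2(CPM + 0.5) minus the mean of the 3 P libraries, with P libraries as grey circles and AxR libraries as orange triangles, grouped by role. Car9, Adm and Aldoc lie farthest to the right, Pfkfb3 farthest to the left, and the libraries of the lines overlap in Pfkfb4, Eno2 and Arnt.

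The 19 enzymes were considered in the order of the pathway. Of 18 tested, 12 rose and 3 fell, with a median log2 fold change of 0.50, and the lines did not overlap in 16. Hexokinases, which trap glucose in the cell as glucose-6-phosphate, were the first reaction and did not rise. Hk1 (chr10:62268855-62379908, minus strand, GRCm38) was at 139, 143 and 140 CPM in the 3 P libraries and 125, 130 and 132 CPM in the AxR libraries, a log2 fold change of -0.12 (SE 0.049, adjusted p = 0.0389). Its fall was small, and the call was lost when any of 5 of the 6 libraries (all but AxR replicate 3) was left out, with adjusted p up to 0.127. Hk2, the inducible hexokinase and a classical HIF target, was at 139, 141 and 134 CPM in P and 131, 134 and 132 CPM in AxR cells, and its log2 fold change of -0.06 (SE 0.049) did not pass (adjusted p = 0.278). Gpi1, which isomerizes glucose-6-phosphate to fructose-6-phosphate, was at 149, 156 and 157 CPM in P and 261, 275 and 258 CPM in AxR cells, a rise of 0.78 on the log2 scale (SE 0.049, adjusted p = 2.68e-09).

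At the phosphofructokinase step, the committed and most regulated reaction, the isozymes went different ways. Pfkl, the liver-type subunit (chr10:77986947-78010083, minus strand), was at 69.8, 73.1 and 81.5 CPM in P and 206, 204 and 181 CPM in AxR cells, a rise of 1.40 (SE 0.067, adjusted p = 1.99e-10). Pfkm, the muscle type, rose by 0.54 from a mean of 12.8 CPM, while Pfkp, the platelet type (chr13:6579768-6648777, minus strand), was at 64.1, 71.2 and 67.3 CPM in P and 58.4, 54.1 and 51.9 CPM in AxR cells and fell by 0.30 on the log2 scale (SE 0.063, adjusted p = 0.000697). The lines did not overlap for any of the 3 subunits. The median log2 fold change of genes on chromosome 13 was -0.27, close to that of Pfkp, and Pfkp overlaps Pitrm1 on the opposite strand, which had 3615 to 4501 counts in P libraries and 1932 to 2234 in AxR libraries. Pfkm likewise overlaps Senp1 on the opposite strand, with 984 to 1113 counts in P and 1192 to 1326 in AxR libraries. The libraries were made with a stranded kit, but the strand setting of the counting is not given in the sources used here, and the part of these neighbours in the results was not tested. Pfkfb3, a bifunctional enzyme that makes fructose-2,6-bisphosphate, the main activator of phosphofructokinase, had the lowest fold change of the members tested. Its levels were 21.8, 20.4 and 20.2 CPM in P and 7.62, 9.82 and 14.2 CPM in AxR cells (log2 fold change -0.97, SE 0.18, adjusted p = 0.00132), with the AxR libraries spread over a coefficient of variation of 31.8% but all below P. Pfkfb4, a related bifunctional enzyme, was at 3.59, 3.18 and 2.35 CPM in P and 2.6, 4.21 and 4.78 CPM in AxR cells, and its difference of 0.35 did not pass (adjusted p = 0.20), although it did without AxR replicate 1 (0.57, adjusted p = 0.0279).

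Both aldolases and the triose phosphate isomerase, which act next, rose. Aldoa, the main aldolase, which splits fructose-1,6-bisphosphate (chr7:126795234-126800751, minus strand), was at 318, 349 and 370 CPM in P and 773, 848 and 743 CPM in AxR cells, a rise of 1.19 (SE 0.063, adjusted p = 7.26e-10). Aldoc, the brain-type aldolase, was at 2.13, 2.37 and 3.33 CPM in P and 15.5, 20.7 and 16.7 CPM in AxR cells, a rise of 2.76 (SE 0.16, adjusted p = 2.41e-09). Tpi1, which interconverts the triose phosphates (chr6:124810586-124814296, minus strand), was at 132, 144 and 142 CPM in P and 433, 421 and 369 CPM in AxR cells, a rise of 1.55 (SE 0.062, adjusted p = 2.52e-11). In all 3 the lines were widely separated, and Aldoc, although it had the highest fold change of any enzyme, remained a minor transcript.

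From glyceraldehyde-3-phosphate on, every main enzyme rose, by less. Gapdh, which oxidizes the triose phosphate, was at 691, 753 and 723 CPM in P and 1002, 1044 and 942 CPM in AxR cells, a rise of 0.46. Pgk1, which makes the first ATP of the pathway, was at 456, 524 and 543 CPM in P and 859, 864 and 793 CPM in AxR cells, a rise of 0.72 (SE 0.063, adjusted p = 1.45e-07). Pgam1, the phosphoglycerate mutase, rose by 0.63 from a mean of 371 to 573 CPM. None of these overlapped between the lines. Eno1, the main enolase, was at 890, 966 and 910 CPM in P and 1190, 1155 and 1161 CPM in AxR cells, a rise of 0.34, whereas Eno2, the neuronal enolase and a known hypoxia-induced gene, was at 1.25 to 1.84 CPM in all 6 libraries with a log2 fold change of 0.06 (SE 0.26, adjusted p = 0.847). Pkm, pyruvate kinase, was at 1176, 1296 and 1297 CPM in P and 1523, 1513 and 1450 CPM in AxR cells, a rise of 0.25 (SE 0.050, adjusted p = 0.000417). Its alternative M1 and M2 transcripts are counted together here.

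The fermentation step differed by subunit. Ldha, the subunit that favours lactate production (chr7:46841475-46855627, plus strand), was at 323, 373 and 371 CPM in P and 796, 751 and 711 CPM in AxR cells, a rise of 1.08 (SE 0.061, adjusted p = 1.47e-09). Ldhb, the subunit that favours lactate oxidation, had 15, 14 and 9 counts in P and 0, 1 and 0 counts in AxR libraries, at least 3.93-fold lower in AxR cells against the floor of 3 counts per library. Ldhb was below the filter on low counts, and with the filter removed it had an adjusted p of 1.06e-07. Nearly all lactate dehydrogenase transcript was thus Ldha in both lines.

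Several of these enzymes have near-identical processed copies elsewhere in the genome, among which the authors' counting could split reads. Copies, taken as annotated genes of at least 95% identity over 300 bases on the same strand, held 46.6% to 48.5% of the counts of Eno1 and its 3 copies together, 31.6% to 34.4% for Gapdh with 76 copies, 25.0% to 27.0% for Pgk1 with 2, and 12.7% to 13.7% for Gpi1. With the counts of the copies added, no member changed its call, and the log2 fold changes were 0.37 for Eno1, 0.45 for Gapdh and 0.72 for Pgk1.

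To set the reactions side by side, CPM was divided by exon length and summed over the members that catalyse each one. In P cells the lowest levels per length were 20.1 ± 0.827 CPM per kb for phosphofructokinase, 23.9 ± 0.656 for glucose-6-phosphate isomerase and 39.6 ± 0.725 for hexokinase (SD, n = 3), against 251 ± 13.9 for pyruvate kinase at the top. Pgk1 had the highest level per length in AxR cells, at 374 ± 17.6 against 226 ± 20.5 CPM per kb in P cells. The ratio of AxR to P ran from 0.941 for hexokinase, the one reaction with a lower sum, through 1.19 for pyruvate kinase, 1.27 for enolase, 1.38 for Gapdh, 1.55 for Pgam1, 1.65 for Pgk1, 1.72 for Gpi1 and 1.95 for phosphofructokinase, to 2.11 for lactate dehydrogenase, 2.31 for aldolase and 2.93 for Tpi1. In AxR cells, hexokinase (37.3 ± 0.603), phosphofructokinase (39.2 ± 2.20) and Gpi1 (41.1 ± 1.40) thus lay close together at the bottom of the order. These sums use the summed exon length of all transcripts of a gene and leave out the copies above. Copies held 46.6% to 48.5% of the joint counts for Eno1 and 25.0% to 27.0% for Pgk1, against 4.54% to 4.99% for Pkm. The order of the highest reactions is therefore not settled by these sums.

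**Figure D2:**
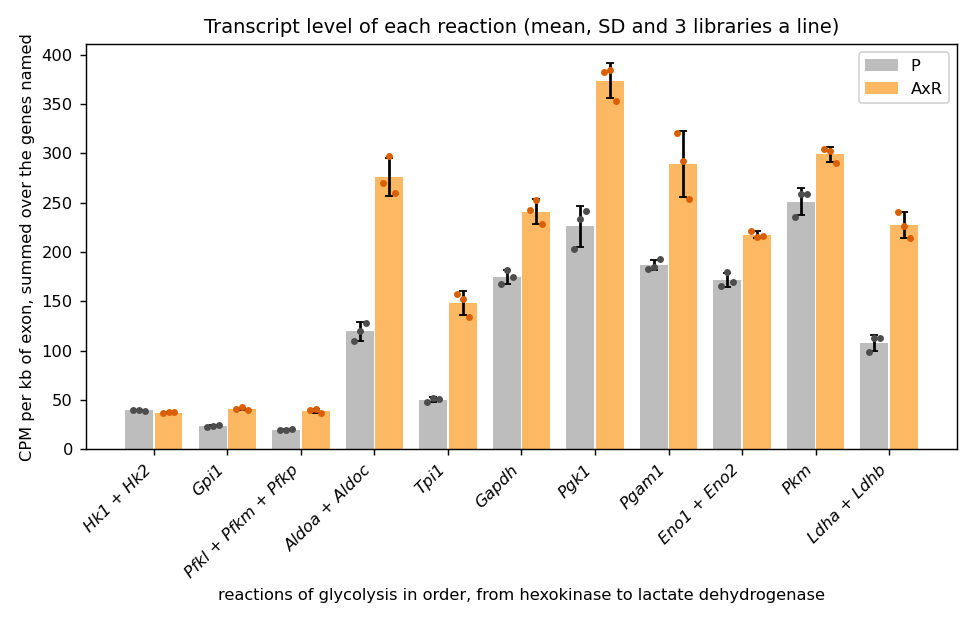
Transcript level of each reaction in CPM per kb of exon, summed over the members named under each pair of bars, with bars for the mean, whiskers for the SD and points for the 3 libraries of P (grey) and AxR (orange). The AxR bar is higher in every reaction except the first, hexokinase, at 39.6 in P and 37.3 in AxR cells.

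Both carriers that could be tested rose slightly. Slc2a1, the widespread glucose carrier GLUT1 and a known HIF target, was at 52.0, 52.4 and 55.8 CPM in P and 70.4, 67.9 and 67.1 CPM in AxR cells, a rise of 0.36 (SE 0.057, adjusted p = 5.36e-05). Slc16a1, the monocarboxylate carrier MCT1, was at 284, 282 and 278 CPM in P and 334, 325 and 313 CPM in AxR cells, a rise of 0.21 (SE 0.046, adjusted p = 0.00112). The lines did not overlap in either, but the median log2 fold change of the genes on chromosome 3, where Slc16a1 lies, was 0.32. The hypoxia-induced carriers that could not be tested were at or near the floor in both lines. Slc2a3, the high-affinity GLUT3, had 1 count in 6 libraries, and Slc16a3, the lactate exporter MCT4, had 3, 4 and 2 counts in P and 5, 3 and 3 counts in AxR libraries, so a difference in either was not detectable at this depth.

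The HIF subunits and regulators did not move as one. Of 4 tested, Hif1a rose, Vhl and Egln1 fell and Arnt was not called, with a median log2 fold change of -0.17. Hif1a (chr12:73901375-73947530, plus strand) was at 287, 241 and 284 CPM in P and 346, 370 and 370 CPM in AxR cells, a rise of 0.42 (SE 0.063, adjusted p = 3.99e-05). Epas1 had no count in any library, which allows up to 3 counts, or 0.196 CPM, in each. The alpha subunit transcript in both lines was therefore that of Hif1a. Arnt was at 91.4, 98.6 and 98.7 CPM in P and 96.1, 95.8 and 97.1 CPM in AxR cells, which gives a log2 fold change of 0.00 (SE 0.052, adjusted p = 0.978), while genes on its chromosome, chromosome 3, had a median of 0.32.

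Vhl and Egln1 fell in AxR cells. Vhl, the substrate receptor of the ubiquitin ligase, was at 34.2, 35.8 and 35.8 CPM in P and 25.1, 27.6 and 28.6 CPM in AxR cells (log2 fold change -0.38, SE 0.072, adjusted p = 0.00031). Egln1, the main oxygen-sensing prolyl hydroxylase PHD2, was at 121, 115 and 121 CPM in P and 95.3, 97.8 and 89.6 CPM in AxR cells (log2 fold change -0.34, SE 0.054, adjusted p = 5.30e-05). Neither overlapped between the lines, and genes on chromosome 8, which holds Egln1, had a median of -0.18.

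The other hypoxia-induced genes gave the highest fold changes of the set. Of 12 tested, 11 rose and Egln3 fell, with a median log2 fold change of 0.86, and of 0.83 for the 10 without Adm and Ankrd37, whose P level lay under the filter. Car9, the surface carbonic anhydrase IX that handles acid exported by glycolytic cells (chr4:43506966-43513729, plus strand), was at 5.11, 5.37 and 7.69 CPM in P and 82.8, 97.1 and 78.6 CPM in AxR cells, a rise of 3.84 on the log2 scale (SE 0.13, adjusted p = 3.14e-10). Adm, the vasodilator peptide adrenomedullin (chr7:110627661-110629820, plus strand), had 5, 5 and 10 counts in P and 85, 84 and 92 counts in AxR libraries, a log2 fold change of 3.68 (SE 0.26, adjusted p = 1.17e-08). For both genes each AxR library lay far above all P libraries, and for Adm the P values were near the floor.

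Metabolic and mitochondrial targets also rose. Pdk1, a kinase that inhibits pyruvate dehydrogenase (chr2:71873224-71903858, plus strand), was at 23.1, 21.3 and 22.6 CPM in P and 68.7, 64.3 and 53.9 CPM in AxR cells, a rise of 1.48 (SE 0.088, adjusted p = 2.08e-09). Bnip3, a mitophagy receptor (chr7:138890836-138909519, minus strand), was at 15.6, 12.5 and 15.8 CPM in P and 55.3, 51.5 and 43.1 CPM in AxR cells, a rise of 1.78 (SE 0.11, adjusted p = 8.33e-09). Its relative Bnip3l, with the same function, rose less, by 0.52, from a mean of 115 to 165 CPM. The copies of Bnip3 and Bnip3l held up to 11.8% and 9.79% of the joint counts. Ddit4, the stress-induced inhibitor of mTORC1 also called REDD1, was at 116, 101 and 95.7 CPM in P and 252, 300 and 234 CPM in AxR cells, a rise of 1.33 (SE 0.10, adjusted p = 2.61e-06), and Ndrg1, a stress-induced protein linked to differentiation, rose by 0.85 from a mean of 349 to 630 CPM.

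Among the oxygen-dependent hydroxylases and demethylases that HIF induces, P4ha1, a collagen prolyl hydroxylase subunit, was at 75.6, 75.3 and 77.8 CPM in P and 140, 141 and 123 CPM in AxR cells, a rise of 0.82 (SE 0.060, adjusted p = 1.65e-08). Kdm3a, a histone demethylase, rose by 0.51 from a mean of 51.6 to 73.6 CPM. The remaining rises rested on few counts. P4ha2, the second collagen hydroxylase subunit, was at 2.01, 1.85 and 2.74 CPM in P and 3.37, 3.95 and 2.90 CPM in AxR cells (0.63, SE 0.21, adjusted p = 0.0162), and Ankrd37, a small ankyrin repeat protein, was at 0.972, 0.577 and 0.978 CPM in P and 1.59, 1.85 and 1.19 CPM in AxR cells (0.87, SE 0.31, adjusted p = 0.0233). The lines did not overlap in either, but each call was lost in 3 of the 6 fits that left out a library, for P4ha2 when P replicate 1, P replicate 2 or AxR replicate 2 was absent (adjusted p = 0.0555, 0.0675 and 0.0774) and for Ankrd37 when P replicate 2, AxR replicate 1 or AxR replicate 2 was (adjusted p = 0.113, 0.0553 and 0.10). Ankrd37 also overlaps Ufsp2 on the opposite strand, which had 419 to 456 counts in P and 487 to 589 in AxR libraries. DESeq2 called neither gene, with adjusted p = 0.0551 for P4ha2 and 0.0826 for Ankrd37.

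Egln3, the prolyl hydroxylase PHD3, which is itself HIF-induced and closes a feedback loop on HIF (chr12:54178981-54203860, minus strand), went against the other 11. It was at 44.1, 47.1 and 44.4 CPM in P and 33.8, 31.1 and 28.4 CPM in AxR cells, which gives a log2 fold change of -0.54 (SE 0.074, adjusted p = 1.23e-05). No AxR library reached the P range.

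The enzyme set was then set beside the other hypoxia-induced genes. The mean log2 CPM of the 18 tested enzymes, relative to the mean of the P libraries, was 0.55, 0.62 and 0.55 in the AxR libraries, and that of the 12 other hypoxia-induced genes was 1.23, 1.27 and 1.06. The difference of the latter minus the former was 0.05, -0.12 and 0.07 in P and 0.68, 0.65 and 0.51 in AxR libraries. Adm and Ankrd37, which passed the filter only through AxR, are among the 12, and without them the mean of the 10 others was 1.14, 1.18 and 0.97 in the AxR libraries and the difference 0.05, -0.10 and 0.04 in P and 0.59, 0.55 and 0.42 in AxR libraries. In both forms the difference was larger in each AxR library than in any P library. The members were listed with results of these libraries known, and no test was made of this difference. At least 2-fold higher were 5 of the 12 hypoxia-induced genes, with Adm among them, and 5 of the 18 enzymes. Among all genes tested the share was 7.99%. Each set held members that fell.

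Related members were compared by the log2 ratio of their CPM within each library, which does not move with library scaling. Of 13 pairs defined, 10 could be computed, and the smallest p of the two-sided exact permutation test with 3 libraries against 3 is 0.1, so no pair could pass 0.05. Pfkp against Pfkl shifted most, by -1.69 on the log2 scale, and per exon length Pfkp went from 31.1% ± 1.78 to 12.2% ± 0.433 of the 2 together (SD, n = 3, exact p = 0.1, adjusted p = 0.143 over the 10 pairs). Aldoc against Aldoa shifted by 1.37, yet Aldoc remained a small part, at 0.663% of the 2 in P and 1.95% in AxR cells. Bnip3l against Bnip3 shifted by -1.21, with Bnip3l going from 82.2% to 66.0%, and Pfkfb3 against Pfkfb4 shifted by -1.27, with Pfkfb3 going from 81.7% to 63.7%. Pfkm against Pfkl shifted by -0.87, Eno2 against Eno1 by -0.30 and Egln3 against Egln1 by -0.20, all 7 without overlap between the lines and with the same exact p of 0.1. The ratios of Hk2 to Hk1 (0.06, exact p = 0.2), P4ha2 to P4ha1 (-0.27, exact p = 0.2) and Slc16a3 to Slc16a1 (-0.12, exact p = 0.3) overlapped between the lines. Among all single genes tested, 68.3% did not overlap, and no such share was computed for ratios of other gene pairs.

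**Figure D3:**
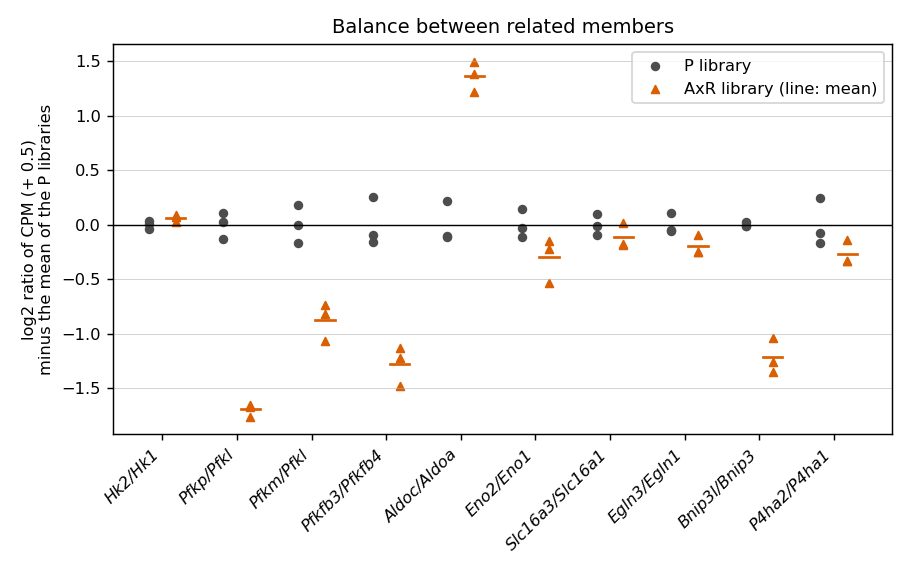
Log2 ratio of the CPM (+ 0.5) of related members in each library, minus the mean of the P libraries, with P libraries as grey circles, AxR libraries as orange triangles and the AxR mean as a line. Pfkp/Pfkl sits lowest, with a mean of -1.69, and Aldoc/Aldoa highest, with 1.37.

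The other genes of the same pathways were counted by list. Of 15 tested genes of further glycolytic and gluconeogenic reactions, 6 rose and 7 fell (median log2 fold change -0.06), with Pcx, pyruvate carboxylase, at 1.62 and Pgm1, phosphoglucomutase, at 0.93 the highest, and Gpd2, the mitochondrial glycerol-3-phosphate dehydrogenase, at -0.58 and Pgam5, a mitochondrial phosphatase despite its name, at -0.57 the lowest. In the pentose phosphate pathway, which branches off at glucose-6-phosphate, 5 of 10 rose and 3 fell (median 0.36). Its oxidative enzymes G6pdx and Pgd went from 38.2 to 97.2 CPM and from 33.6 to 97.4 CPM, rises of 1.35 and 1.54, while Rpe and Prps1, of its non-oxidative and nucleotide branches, fell by 0.42 and 0.31 on the log2 scale. Of 10 glycogen genes 7 rose and 2 fell (median 0.35), with Gyg, glycogenin, at 0.68, on chromosome 3, and with the phosphorylase kinase subunits Phkg2 and Phkb at -0.24 and -0.16.

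Genes of pyruvate entry into the mitochondrion, and of the pyruvate dehydrogenase complex with its kinases and phosphatases, were next. Of 12 tested, 2 rose and 7 fell (median -0.28). The list mixes activators and inhibitors, so its counts and median give no single direction for this step. Pdk2 and Pdhb rose by 0.55 and 0.18, Pdk2 from a mean of only 3.58 CPM in P cells. Another kinase of the complex, Pdk3, fell from 71.0 to 56.1 CPM (log2 fold change -0.34), so the kinases did not move as one. The phosphatases Pdp1 and Pdp2, which reverse the action of Pdk1, were at -0.47 and -0.44. Of 8 further carrier genes 3 rose and 3 fell (median 0.15). The lysosomal hexose carrier Slc2a6 rose from at most 3 counts in P libraries to 16 to 22 counts in AxR libraries, at least 6.04-fold. It passed the filter on low counts only through its AxR level. Slc16a8 rose by 0.66, and Arrdc4 and Slc2a9 were at -1.72 and -0.76, Arrdc4 being an arrestin that restrains glucose uptake.

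In the wider HIF machinery 4 of 9 rose and 2 fell (median 0.04). Cul2, the cullin of the Vhl ligase, rose by 1.13, on a chromosome whose genes had a median of 0.50, and Cited2, a HIF-induced competitor for p300, by 0.65, while Crebbp, a HIF coactivator, and Eloc, the elongin C of the Vhl ligase, were at -0.54 and -0.44. Of 33 further hypoxia-induced genes tested, 16 rose and 12 fell (median 0.16), shares of 48.5% and 36.4%. Bhlhe40, a transcriptional repressor, rose from 82.0 to 180 CPM (1.14) and Hmox1, heme oxygenase 1, from 21.1 to 41.4 CPM (0.97). Stc1, the secreted stanniocalcin 1, fell from 103, 136 and 100 counts in P to 0, 4 and 1 counts in AxR libraries, and Pgf, placental growth factor, from 60, 65 and 41 counts to 2, 2 and 1 counts, at least 17.2-fold lower. Vegfa, the VEGF ligand best known as a HIF target and chosen for mention after its values were seen, rose from 71.0 to 138 CPM (0.96, SE 0.068, adjusted p = 1.26e-08). The shares of 48.5% and 36.4% stand beside 91.7% and 8.33% in the 12 hypoxia-induced members, and the difference between the lists was not tested. Adm and Ankrd37 passed the filter on low counts only through their AxR level, and Stc1 and Pgf only through their P level. Of 14 tested genes of the MYC, mTOR and AMPK pathways, which also set the level of glycolytic enzymes, 6 rose and 4 fell (median 0.11), with Tsc2 and Stk11 up by 0.60 and 0.42 and Prkaa1 at -0.46. Myc, a direct activator of glycolytic genes, fell from 929 ± 48.5 to 501 ± 87.5 CPM (SD, n = 3, log2 fold change -0.89, SE 0.12, adjusted p = 0.00069).

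**Figure D4:**
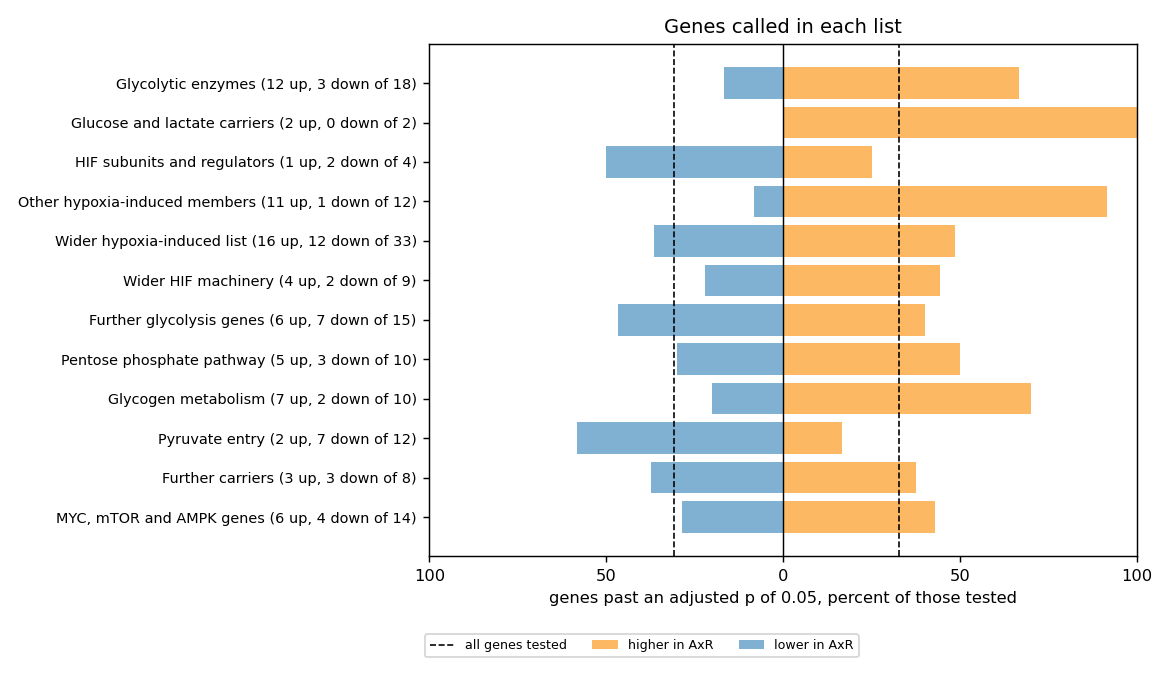
Share of the tested genes of each list past an adjusted p of 0.05, higher in AxR to the right and lower to the left, in percent, with dashed lines at the shares of all genes tested, 32.8% and 30.8%. All lists but the HIF subunits and regulators (25% higher) and pyruvate entry (16.7%) extend beyond the line on the right, and these and the wider hypoxia-induced, further glycolysis and further carrier lists extend beyond the line on the left.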

How the data were processed

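Poly(A) RNA of 3 P and 3 AxR samples was sequenced from stranded libraries. The authors checked reads with FastQC 0.11.5, aligned them to GRCm38 with STAR 2.6.0a, and deposited estimated counts per gene from RSEM 1.3.1, which divides reads shared by similar genes, before any filter or normalization. Symbols, positions and exon lengths came from GENCODE M21, a later release than the study's, in which 53360 of 53465 identifiers and all members were found. Aldoa is the name of 2 gene models, and the one with nearly all counts was used.

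After rounding of the estimated counts and removal of low genes by filterByExpr, libraries were scaled by their upper quartile, as in the study, and compared in R 4.3.3 by the robust quasi-likelihood test (edgeR 4.0.16) on the line alone, with Benjamini-Hochberg adjustment over 13550 genes and a threshold of 0.05. CPM used the normalized library size, per-length levels divided it by kb of exon, and ratios within a library used a pseudocount of 0.5. Depth per library was 15495260 to 17294525 counts, and the floor of 3 counts covers counting error only. One gene, CT010467.1, took 2.52% to 4.75% of the counts. Replicates of a line differed by more than sampling noise, with a chi-square per degree of freedom of 4.99 to 19.2. The highest was between AxR replicates 1 and 3. No library was therefore taken as a repeat reading of another, and all 6 were kept. Near-identical copies were found by aligning transcripts, and promoters came from RefSeq windows. The fit was tested on simulated data.

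The members and lists were chosen with earlier results of these data known, and all p-values were adjusted over all genes tested. All members are named, and of each pathway list up to 2 highest and 2 lowest log2 fold changes past the threshold without overlap, except 1 gene that is not reported here. The alternatives were TMM, library size only, DESeq2 1.42.0, limma-voom (limma 3.58.1), other filters, a replicate block, leaving out each library, a fold threshold, other list contents, another pseudocount, a chromosome-relative scale and, added after seeing the data, adding the copies and leaving Adm and Ankrd37 out of the mean of their role.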

Additional observations from a re-analysis of the deposited data

How the results depend on the processing

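With a log2 fold change of 1 or more in size also required, 1083 genes were higher and 640 lower in AxR cells, with 5 enzymes, 5 other hypoxia-induced members, 0 carriers and 0 HIF genes among the higher and 0 of each role among the lower. The median log2 fold change of the enzymes lay between 0.43 (without AxR replicate 2) and 0.55 (without AxR replicate 1) when a library was left out, and was 0.58 without Pfkfb3 and Pfkfb4. Relative to the median of the same chromosome, the carriers had a median of 0.073 and the HIF genes of -0.24, and with no low-count filter the carriers had one of 0.24. Glycogen genes lower in AxR cells numbered 0 by DESeq2 (2 at an unadjusted p under 0.05), against 2 by edgeR. Of the members not called, Eno2 and Arnt changed sign, Eno2 to -0.055 without AxR replicate 1 (up to 0.21 without AxR replicate 3), and Arnt, which was at most 0.023 without P replicate 3, to -0.0097 with TMM, -0.019 with library size only, -0.011 by DESeq2, -0.0019 with no low-count filter, -0.030 without P replicate 1 and -0.0019 without AxR replicate 3. With the replicate number as a block, Hk1 was lost (adjusted p = 0.0745) and 1 glycogen gene was lower instead of 2, 2 further carrier genes were higher instead of 3 and 5 genes of the MYC, mTOR and AMPK list instead of 6, while no other member or list changed by that fit. Deviations of same-numbered libraries had correlations of -0.021, -0.0061 and -0.022, so the samples share only a number. Hk1 was also lost with no low-count filter (adjusted p = 0.0757). Of the other values recomputed, 321 for lists and ratios and 480 for single members kept direction and side of the threshold, or for counts stayed within 1.5 times. Slc2a3 and Epas1, at or under 3 counts in every library, and Slc16a3, at 2 to 5 counts, could not be compared at this depth.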
